A study of Mus musculus with 10 samples.

Results

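The Myc and Mycn loci were followed through ChIP-seq peak lists of Nanog, a homeodomain factor of pluripotent cells, and of Sin3a, the scaffold of a histone deacetylase complex, in mouse pre-iPSCs, cells halted partway to pluripotency. Members were all peaks that overlapped a window around Myc, on chromosome 15 at 61770000-61870000, or around Mycn, on chromosome 12 at 12890000-13000000, both in build mm9. Of 110170 peaks in 4 lists, 34 were members, 30 in the Myc window and 4 in the Mycn window. The rule uses position alone, and the windows were set with earlier results of these data known.

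Chromatin immunoprecipitation with sequencing had been done in pre-iPSCs derived from female neural stem cells of strain 129/MF1. All lines carried an Oct4-GFP-IRES-puro reporter and grew in serum with LIF. PiggyBac transposon vectors with the CAG promoter gave drug-selected stable lines. The Sin3a line received Sin3a and an empty vector, the Nanog line received Nanog with a FLAG tag and an empty vector, and the double line (Nanog + Sin3a in the figures) received both transgenes. Sin3a ChIP was done in the Sin3a and double lines and FLAG ChIP in the Nanog and double lines, with 2 replicates for each of these 4 groups. Nanog was read through its FLAG tag and therefore as transgene protein, whereas the Sin3a antibody cannot tell added from endogenous Sin3a. No FLAG list of a line without the Nanog transgene, and no Sin3a list of a line without the Sin3a transgene, was analysed here.

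Each group had 1 deposited peak list with no value per replicate. Differences between lists could therefore not be set against the spread between replicates, and no test of them was possible. The values per peak are the authors' own: the fold enrichment, which is a ratio of ChIP signal to the expected background at the summit, and a −log10 q, the adjusted significance of the peak within its list. A rank is the place of a peak in its own list by −log10 q, with 1 as the strongest. The Sin3a lists held 17168 (Sin3a line) and 18231 (double line) peaks, and the FLAG lists 38485 (Nanog line) and 36286 (double line). The number of ChIP fragments over each summit was worked out from the deposited fold and p-value of the peak, and is given with a 95% Poisson interval that covers counting error only. Fragment numbers are before scaling, by factors of 0.700 (Sin3a line) and 0.772 (double line) for Sin3a and of 0.868 (Nanog line) and 0.731 (double line) for FLAG.

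Myc and Mycn encode related transcription factors with a basic helix-loop-helix leucine zipper. They pair with Max, bind E-box sequences and drive cell growth and proliferation. The Mxd proteins, which compete for Max, repress the same kind of sites by recruiting Sin3 proteins and their histone deacetylases, so that Sin3a is known as a partner of the antagonists of Myc. Myc is also one of the classical reprogramming factors, both genes are expressed in pluripotent cells, and Mycn is prominent in neural progenitors. In the RefSeq gene table of the later build GRCm38, the long non-coding RNA gene Pvt1 follows Myc, and the nearest protein-coding genes beside Mycn are Cyria and Ddx1. Gene coordinates of mm9 were not used here, so that no peak was assigned to a promoter, exon or intron, and positions are given as distances from the centre of a window. Peak sequences are not shown, since no genome of this build was used.

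The Myc window was densely occupied, whereas the Mycn window held about as many peaks as other windows of its length. The Myc window held 7 Sin3a peaks of each line, 9 FLAG peaks of the Nanog line and 7 of the double line. Consecutive windows of the same 100 kb, along each autosome and the X chromosome up to its last peak, held on average 0.655 and 0.696 Sin3a peaks and 1.47 and 1.38 FLAG peaks, in that order of lists. At least as many peaks as in the Myc window were found in 1.43% and 1.80% of these windows for Sin3a and in 3.48% and 4.87% for FLAG. Most of these windows were empty, 73.8% and 73.9% of them for Sin3a and 59.2% and 56.9% for FLAG, and they were not matched for genes. The Mycn window of 110 kb held 0 and 1 Sin3a peaks and 2 and 1 FLAG peaks, against means of 0.720, 0.765, 1.61 and 1.52. Of all windows of that length, 72.4% had no Sin3a peak of the Sin3a line. At least as many peaks as in the Mycn window were found in 27.5% of windows for Sin3a in the double line, and in 29.6% and 45.1% for FLAG in the Nanog and double lines.

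**Figure D1:**
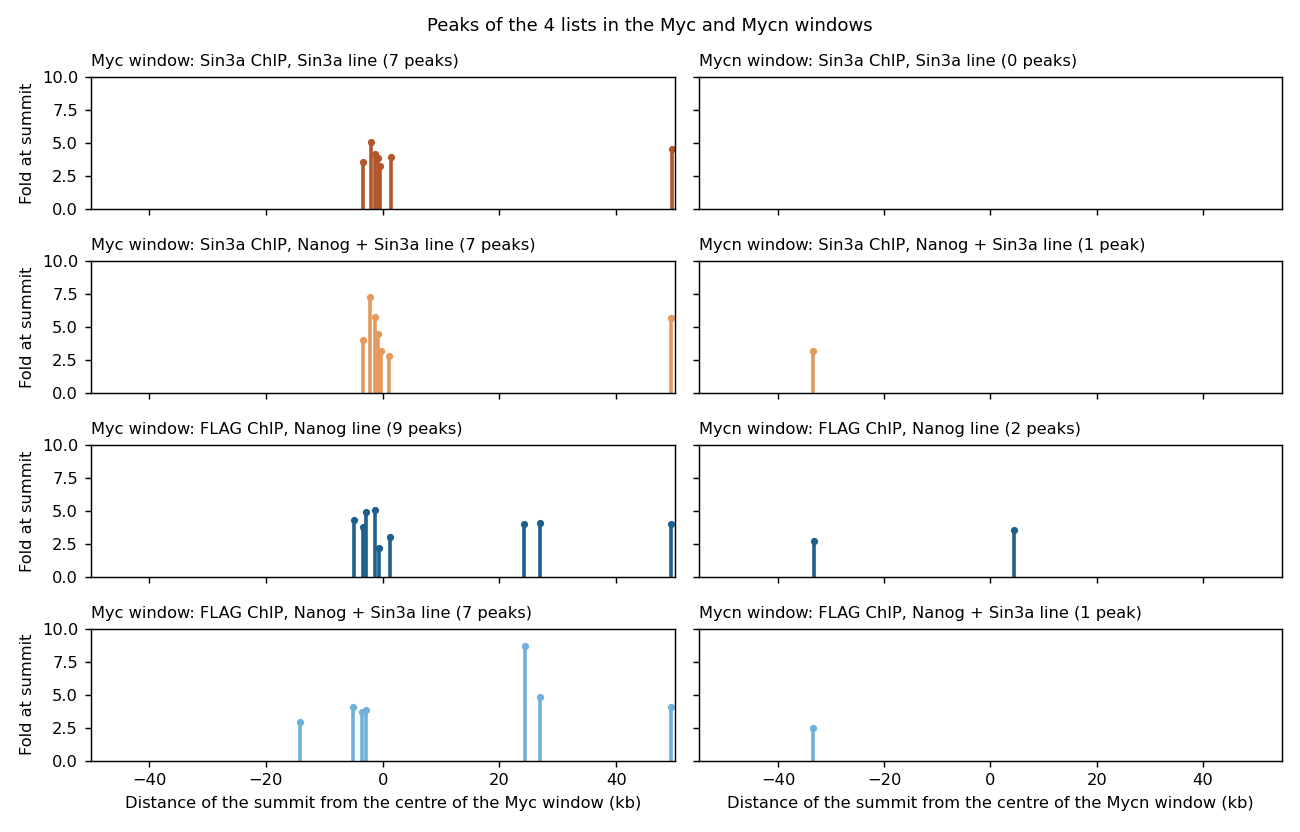
Fold at the summit (vertical axis) of each member peak against the distance of its summit from the centre of its window in kb (horizontal axis), with 1 row for each list, Myc on the left and Mycn on the right. Sin3a peaks crowd within 4 kb of the centre of the Myc window and recur at its right edge, whereas FLAG peaks also lie 24 to 27 kb to the right of the centre, and the Mycn window holds 4 peaks in all.

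Peaks of the 4 lists that shared at least 1 base were merged into sites and numbered along the chromosome, which gave 10 Myc sites and 2 Mycn sites. Both proteins were found at 6 of the 10 Myc sites, and FLAG without Sin3a at the other 4 (over all 45707 merged regions, 37.2% had both). No Myc site had Sin3a alone, as 5.27% of all merged regions did, so that 0 of 10 is near the share of the genome. By strength, 8 of the 34 members exceeded the median fold of their own list. A −log10 q of at least 5 was found for 24 members, against 80.9% (Sin3a line) and 77.1% (double line) of all peaks in the Sin3a lists and 82.1% (Nanog line) and 80.3% (double line) in the FLAG lists. A −log10 q of at least 10 was found for 6 members, against 51.5%, 47.3%, 47.7% and 46.7% of all peaks in the same order. Folds ran from 2.18 to 8.70, and the summits held 22 to 70 ChIP fragments.

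Myc sites 3 to 7, neighbouring sites that all had Sin3a peaks, were taken as a cluster. It covered 5135 bp, on chromosome 15 at 61816394-61821528, and spanned the centre of the window. Its left border follows Sin3a and not distance. Site 2, with FLAG alone, lay 1089 bp from site 3, whereas sites 6 and 7 within the cluster lay 1137 bp apart. Each Sin3a list had 6 peaks in the cluster. When peaks of 1 list were joined over gaps of up to 1500 bp, groups of at least 6 peaks numbered 24 of 13522 for the Sin3a line's Sin3a list (0.177%) and 37 of 13671 for that of the double line (0.271%). With the same rule the FLAG list of the Nanog line had 6 joined peaks in the window, from site 2 to site 7, a size reached by 122 of 28723 groups (0.425%). In the double line only 3 FLAG peaks were joined, those of sites 2 to 4, and 5.02% of groups were as large. Over gaps of up to 1000 bp, 5 Sin3a peaks stayed joined in each list, but only 2 FLAG peaks in the Nanog line. This way of counting was chosen after the peaks had been seen.

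**Figure D2:**
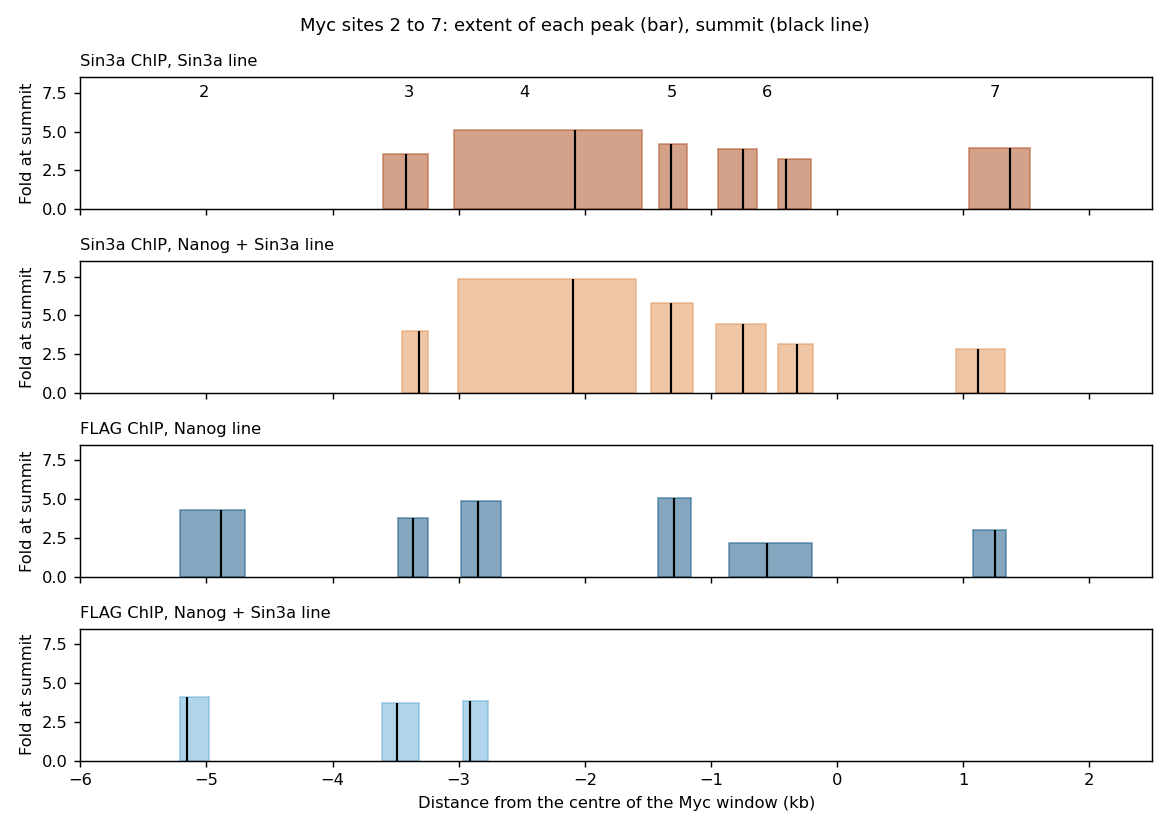
Extent of each peak (bar, with its height as the fold at the summit) and its summit (black line) at Myc sites 2 to 7, whose numbers stand above the top row, against the distance from the centre of the Myc window in kb. Both Sin3a lists have 6 peaks in the same places, the FLAG list of the Nanog line has a peak at each numbered site, and the FLAG list of the double line has none at sites 5, 6 and 7.

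Myc site 4, on chromosome 15 at 61816966-61818450, carried the strongest Sin3a peak of the window in both lines. In the Sin3a line this peak was 1485 bp wide, with a fold of 5.07, −log10 q of 11.2, rank 7887 and 45 fragments over the summit (interval 32.8 to 60.2). In the double line it was 1411 bp wide, with a fold of 7.31, −log10 q of 21.9, rank 2775 and 56 fragments (42.3 to 72.7). The width put it among the broad Sin3a peaks, as 3.76% and 4.32% of the peaks in these lists were at least as wide. The Sin3a summits, at 61817921 and 61817905, lay 16 bp apart.

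FLAG-Nanog at site 4 lay at the left end of this broad Sin3a peak. The FLAG peak was 318 bp wide in the Nanog line, with a fold of 4.91, −log10 q of 9.15, rank 19683 and 31 fragments (21.1 to 44.0), and its summit at 61817154 lay 767 bp from that of Sin3a in the Sin3a line. In the double line the FLAG peak was 202 bp wide, with a fold of 3.85, −log10 q of 5.52, rank 26676 and 29 fragments (19.4 to 41.6), and its summit at 61817093 lay 812 bp from that of Sin3a in the same line. Genome-wide, overlapping Sin3a and FLAG peaks had summits a median of 92 bp apart across the single-transgene lines and 102 bp apart in the double line. These medians cover peaks of all widths, few of them as broad as this one, and summits of wide peaks are less exact. The site is shared by the overlap of its peaks, and its summits are apart.

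Site 5, on chromosome 15 at 61818524-61818854, was the opposite case, with summits of the 2 proteins close together and FLAG listed in 1 line. The Sin3a fold was 4.20 in the Sin3a line (−log10 q 6.98, rank 11071, summit 61818682) and 5.78 in the double line (13.4, rank 6045, summit 61818685). The summits held 37 (26.1 to 51.0) and 44 (32.0 to 59.1) Sin3a fragments. FLAG in the Nanog line had its highest fold of the window here, at 5.06 (−log10 q 9.89, rank 18531), with 32 fragments (21.9 to 45.2) and a summit at 61818705, 23 bp from that of Sin3a. The FLAG list of the double line had no peak at this site. Of 3960 FLAG peaks in the Nanog line within 1 unit of this −log10 q, 21.2% had no counterpart in the double line either. The weakest FLAG peak of that list on its lowest background had 20 fragments and a fold of 2.71.

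Site 6, on chromosome 15 at 61819040-61819808, held many ChIP fragments over a raised background. Each Sin3a list had 2 peaks there. The left ones had folds of 3.88 and 4.45 in the Sin3a and double lines (−log10 q 8.01 and 10.3, ranks 10449 and 8533, summits 61819257 and 61819252), with 47 (34.5 to 62.5) and 45 (32.8 to 60.2) fragments. The right ones had folds of 3.23 and 3.18 (−log10 q 6.98 and 5.92, ranks 11071 and 13174, summits 61819596 and 61819682), with 54 (40.6 to 70.5) and 44 (32.0 to 59.1) fragments. The right peak thus had the most fragments of any member of the Sin3a line's list and the lowest fold. FLAG in the Nanog line spanned both with 1 peak of 657 bp and summit 61819444, at 34 fragments (23.5 to 47.5) but a fold of 2.18, −log10 q of 2.21 and rank 38027, close to the end of the list.

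The expected background that divides the ChIP signal had a lowest level in each list, here called the baseline, which was 5.41 (Sin3a line) and 5.05 (double line) fragments for Sin3a and 4.68 (Nanog line) and 4.76 (double line) for FLAG. Of the 34 member peaks, 17 lay on the baseline, close to the shares of the whole lists, which were 53.7% and 56.6% for Sin3a and 48.2% and 48.1% for FLAG in the same order. At the right Sin3a peaks of site 6 the background was 11.0 in the Sin3a line and 10.0 in the double line, 2.03 and 1.98 times the baseline. At the FLAG peak of site 6 it was 13.0, or 2.78 times. These 3 were the only members at or above 1.9 times the baseline, a level reached by 1.46%, 1.79% and 3.12% of the peaks of these lists and by 1.41% of the FLAG list of the double line. The level lies just below the lowest of these 3 and above the next member, at 1.68 times, so that the count and the shares depend on it. At the left Sin3a peaks of site 6 the background was 1.43 and 1.39 times the baseline. Since the fold divides by the background, a raised background gives a lower fold by definition. The part of the background in the calls at site 6 was not tested. The labels do not say how the pre-iPSCs had been reprogrammed, and whether they carried added copies of Myc, which would count toward the background over its exons, was not tested.

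**Figure D3:**
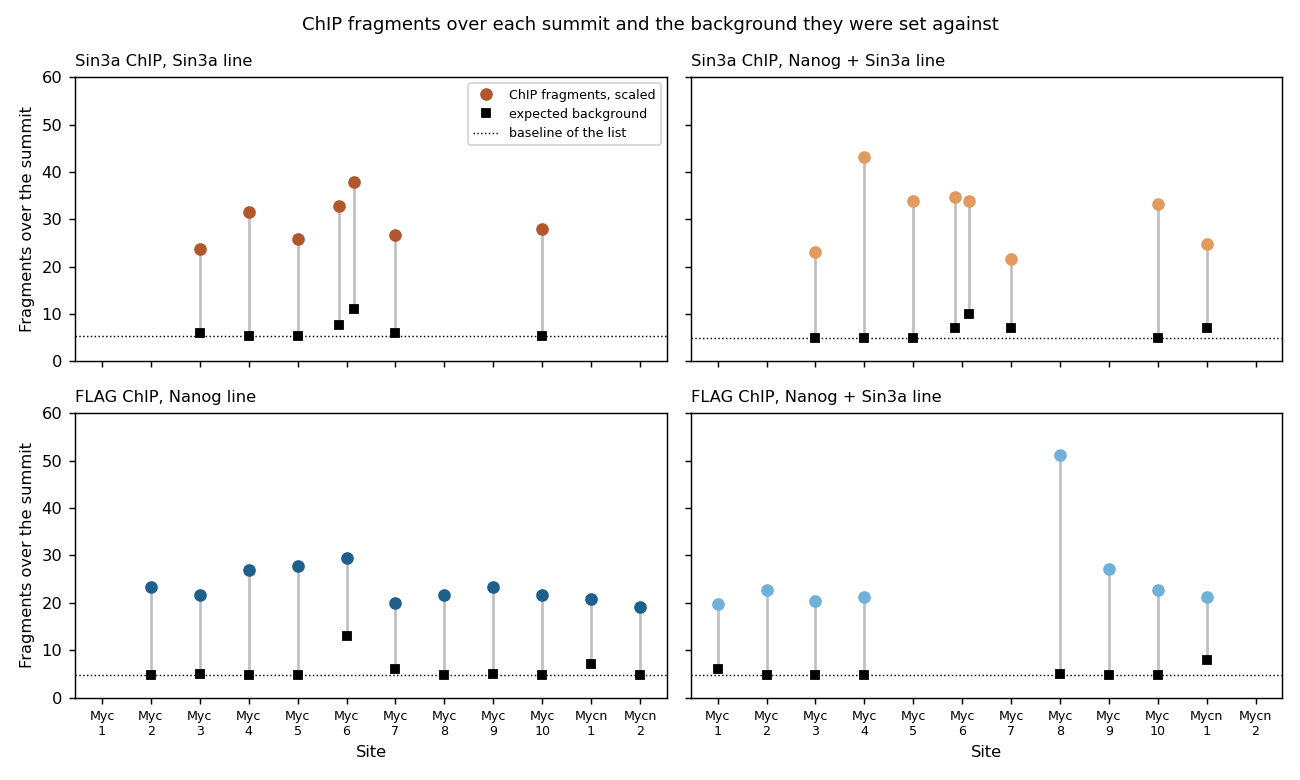
Scaled ChIP fragments over each summit (coloured circles) and the expected background there (black squares) by site, with 1 panel for each list and the baseline of the list as a dotted line. Site 6 combines high ChIP signal with the highest background, up to 13.0 at its FLAG peak, and the FLAG peak of site 8 in the double line has the highest ChIP signal of all members.

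Sites 3 and 7 closed the cluster on either side. Site 3, on chromosome 15 at 61816394-61816755, was in all 4 lists with even folds. These were 3.54 (Sin3a line) and 3.99 (double line) for Sin3a, and 3.78 (Nanog line) and 3.73 (double line) for FLAG. Its ranks were 13897, 12028, 30033 and 29218, its summits 61816582, 61816688, 61816636 and 61816509, and its fragments 34, 30, 25 and 28, in the same order. Site 7, on chromosome 15 at 61820946-61821528, had Sin3a folds of 3.94 and 2.83 in the Sin3a and double lines (−log10 q 6.74 and 2.81, ranks 11716 and 17437, summits 61821374 and 61821119). Its FLAG peak in the Nanog line was weak, with a fold of 2.99, −log10 q of 2.98, rank 37014, summit 61821249 and 23 fragments (14.6 to 34.5), and the FLAG list of the double line had none. The background at site 7 was 1.11 and 1.39 times the baseline for Sin3a and 1.28 times for FLAG.

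Sites 5, 6 and 7 thus shared a pattern: Sin3a in both lines, FLAG in the Nanog line, and no FLAG peak in the double line. This class made up 3 of the 10 Myc sites and 2.18% of all merged regions (996). Another 3 Myc sites were in all 4 lists, as were 25.7% of all regions. Counted by peaks, 3 of the 7 Sin3a peaks of the double line overlapped a FLAG peak of that line, where the whole list had 80.3%, and all 7 Sin3a peaks of the Sin3a line met a FLAG peak of the Nanog line, where the list had 88.5%. In the other direction, 6 of 9 FLAG peaks in the Nanog line met a Sin3a peak of the Sin3a line, where the list had 41.8%, and 3 of the 7 FLAG peaks of the double line met a Sin3a peak of that line, where the list had 42.2%. With summits within 200 bp as the criterion, the 3 became 2, since site 4 then no longer counts. Of the 3 FLAG peaks without a counterpart, those of sites 6 and 7 were weak, and 65.9% of FLAG peaks of the Nanog line at either strength had none. The neighbouring sites count separately here, although they lie 185 and 1137 bp apart, and site 6 alone gives 2 Sin3a peaks of the double line. In windows 50 kb longer on both sides, 6 of 11 Sin3a peaks of the double line overlapped a FLAG peak of that line. The shares of the whole lists are not matched for the strength of the peaks.

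The 4 sites that had FLAG-Nanog without Sin3a lay outside the cluster by its definition. Such sites were common over all merged regions. Site 2, on chromosome 15 at 61814791-61815304 and 1089 bp from site 3, had FLAG folds of 4.30 in the Nanog line (−log10 q 7.03, rank 24932, 27 fragments, summit 61815114) and 4.11 in the double line (6.17, rank 24884, 31 fragments, summit 61814849). Its summits lay 265 bp apart, against a median of 41 bp between the FLAG lists. Site 1, on chromosome 15 at 61805796-61805992, was listed for FLAG in the double line only, at a fold of 2.96, −log10 q of 2.93, rank 34752, summit 61805841 and 27 fragments (17.8 to 39.3). Among FLAG peaks of that list at like strength, 42.3% had no counterpart in the Nanog line. FLAG in the double line alone made up 14.5% of all merged regions.

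Site 8 held the strongest peak of both windows. It lay on chromosome 15 at 61844115-61844595, 24 kb to the right of the centre, and had no Sin3a peak in either line. In the Nanog line its FLAG peak was of low rank, with a fold of 3.99, −log10 q of 5.70, rank 28518 and 25 fragments (16.2 to 36.9). In the double line the fold was 8.70, the −log10 q 30.1, the rank 4002 and the number of fragments 70 (54.6 to 88.4). The peak in the Nanog line had 74.1% of its list above it, and that in the double line 11.0%. The summits, at 61844250 and 61844289, were 39 bp apart, and the background was at the baseline in the Nanog line and 1.05 times the baseline in the double line.

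Site 9, on chromosome 15 at 61846757-61847067, lay 2161 bp from site 8 and was likewise a FLAG site without Sin3a. Its folds were 4.07 in the Nanog line (−log10 q 6.51, rank 26463, 27 fragments, summit 61846896) and 4.85 in the double line (9.65, rank 18142, 37 fragments, summit 61846887). The summits differed by 9 bp. Sites 2, 8 and 9 belong to the class of FLAG in both lines without Sin3a, which made up 26.9% of all merged regions.

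Site 10, on chromosome 15 at 61869279-61869841, was again in all 4 lists, 22211 bp beyond site 9 and just inside the window. Sin3a had folds of 4.53 in the Sin3a line (−log10 q 9.02, rank 9361, 40 fragments, summit 61869468) and 5.65 in the double line (13.4, rank 6045, 43 fragments, summit 61869457). FLAG had folds of 3.99 in the Nanog line (5.70, rank 28518, 25 fragments, summit 61869412) and 4.11 in the double line (6.17, rank 24884, 31 fragments, summit 61869421). All 4 summits lay within 56 bp, 11 bp apart for Sin3a in its lists and 9 bp apart for FLAG. Every peak of the site was on the baseline.

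**Figure D4:**
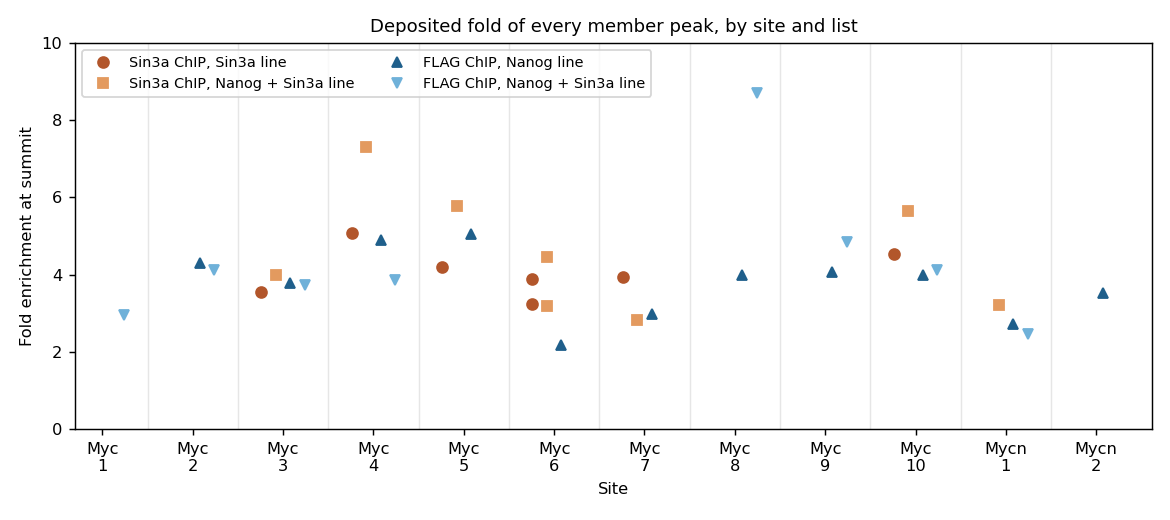
Fold at the summit of every member peak (vertical axis) by site (horizontal axis), with a marker and colour for each list and no marker where a list has no peak. The highest values are FLAG in the double line at Myc site 8 (8.70) and Sin3a in the same line at Myc site 4 (7.31).

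Between the lines, Sin3a at the Myc sites differed in fold by less than 1.5 times, and FLAG at site 8 differed by more. All 7 Sin3a peaks of the Sin3a line in the Myc window overlapped a Sin3a peak of the double line, and all 7 of the latter one of the former, where the lists had 84.2% and 80.4%. The ratio of fold, double line over Sin3a line, was above 1 at 5 of the 7 pairs, with a median of 1.15, a lowest value of 0.717 at site 7 and a highest of 1.44 at site 4. Over all 12851 Sin3a pairs that overlapped one to one the median was 0.998, and 5.03% had a ratio at least as high as site 4. No Sin3a pair in the windows passed 1.5 times in the higher direction, as 3.54% of all pairs did, or in the lower direction, as 3.74% did. As scaled fragments, the ratio at site 4 was 1.37, with a counting interval of 0.910 to 2.08 that includes 1.

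For FLAG, 6 of the 9 peaks of the Nanog line in the Myc window overlapped a FLAG peak of the double line, and 6 of the 7 in the other direction, where the lists had 74.2% and 79.7%. At site 8 the fold in the double line was 2.18 times that in the Nanog line. Over all 25899 FLAG pairs the median ratio was 0.912, and 246 pairs (0.950%) had a ratio at least this high. Of the 7 FLAG pairs in both windows, this 1 passed 1.5 times in the higher direction, as did 5.35% of all pairs, and 0 passed in the lower direction, as did 8.4%. As scaled fragments the ratio at site 8 was 2.36, with a counting interval of 1.48 to 3.89. The remaining 6 FLAG pairs had ratios from 0.785 at site 4 to 1.19 at the neighbouring site 9. These intervals hold no spread between replicates, so the difference at site 8 is one between 2 lists.

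**Figure D5:**
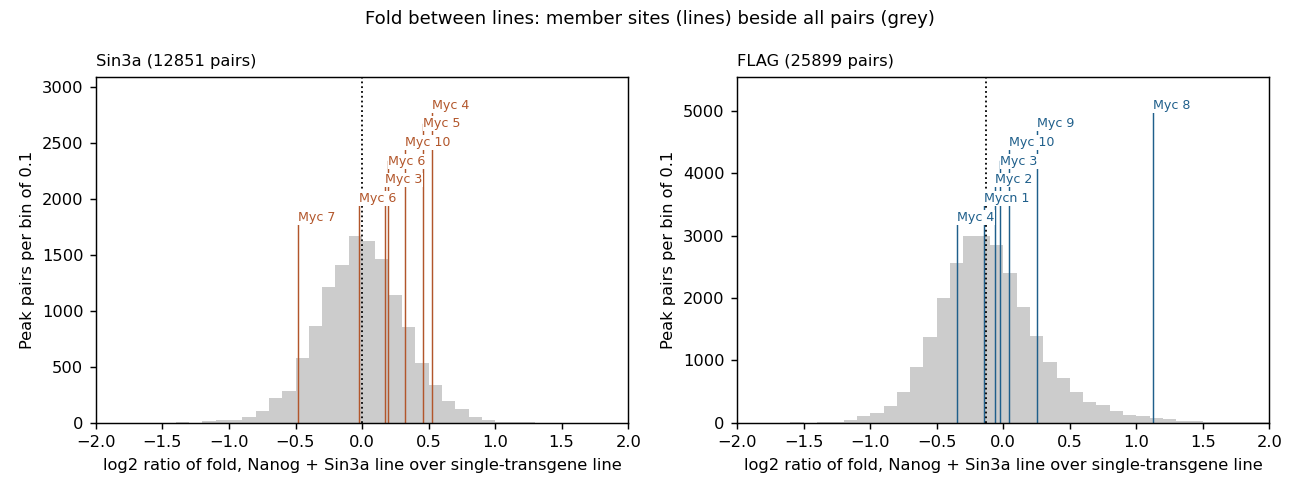
Log2 ratio of fold, double line over the single-transgene line, for Sin3a (left) and FLAG (right), with all pairs of peaks that overlapped one to one as a grey histogram, their median as a dotted line and each member pair as a coloured line with its site. Myc site 8 lies far to the right of the other FLAG members, and the Sin3a members lie within the histogram, 5 of 7 above a ratio of 1.

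The Mycn window had 4 peaks, each with a fold below the median of its list. Site 1, on chromosome 12 at 12911437-12911811 and 33 kb to the left of the centre, had a Sin3a peak in the double line with a fold of 3.21, −log10 q of 4.35, rank 15859, summit 12911597 and 32 fragments (21.9 to 45.2). FLAG peaks were listed there in the Nanog line, with a fold of 2.73, −log10 q of 2.58, rank 37643, summit 12911671 and 24 fragments (15.4 to 35.7), and in the double line, with a fold of 2.47, −log10 q of 2.20, rank 35749, summit 12911650 and 29 fragments (19.4 to 41.6). Here too the background was above the baseline, 1.39 times for Sin3a and 1.49 and 1.68 times for FLAG, and its part in the calls was not tested. The Sin3a list of the Sin3a line had no peak at this site, and 47.8% of the Sin3a peaks of the double line at like strength had no counterpart in that list. Regions in the same lists as this site made up 3.65% of all merged regions.

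Site 2, on chromosome 12 at 12949316-12949509, was the peak nearest the centre of the Mycn window, 4.35 kb to its right. Only FLAG in the Nanog line had this peak, which was on the baseline, with a fold of 3.53, −log10 q of 4.45, rank 32473, summit 12949354 and 22 fragments (13.8 to 33.3). At like strength 58.5% of the FLAG peaks in this list had no counterpart in the double line. No Mycn peak reached a −log10 q of 5, whereas 24 of the 30 Myc peaks did. The Myc count is near the shares of the whole lists, which ran from 77.1% to 82.1%.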

How the data were processed

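The series holds 10 samples, 8 of them ChIP samples in 4 groups of 2 replicates taken from the sample descriptions. Neither the input nor the IgG sample was used here. Per the submitters' processing notes, build mm9, FastQC 0.10.1, Bowtie 1.0.0 and SAMtools 0.1.19 were used. Not given in the sources used here are the peak caller and whether replicates were pooled. The deposited lists give a score, a fold (ratio), a −log10 p and a −log10 q per peak. Coordinates are printed 1-based.

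Fragment numbers and the expected background were recovered from the deposited fold and −log10 p. The solution was unique for all 34 members and for 100% and 99.98% of peaks in the Sin3a lists and 99.969% and 99.99% in the FLAG lists. The fold equals the scaled fragments plus 1 over the background plus 1. Total reads are unknown, and duplicates cannot be seen. Peaks were the same site when they shared at least 1 base. Ratios between lines used pairs that overlapped one to one, a choice made after the data were seen. All sites were named. Members, windows and lists were chosen with earlier results of these data known. Alternatives were 50% of the shorter peak, summits within 200 bp, minima of 5 and 10 for −log10 q, the same number of top peaks in every list, windows 50 kb longer on both sides and ranks by fold or p. Peaks at other genes of the Myc network were not analysed here, since the gene table is of another build. The code was tested on simulated data and run in Python 3.11.15 (SciPy 1.17.1, NumPy 2.4.6, pandas 2.3.3, Matplotlib 3.10.9).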

Additional observations from a re-analysis of the deposited data

How the results depend on the processing

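No paired analysis was possible because the lists carry no replicate values, which also meant that no replicate could be left out. Shifting the genome windows by 50% of their length, which was run on the shares of windows, moved these shares little. At Myc, Sin3a in the Sin3a line had 1.36% in place of 1.43%, and FLAG in the double line 4.92% in place of 4.87%. Requiring summits within 200 bp or an overlap of 50% of the shorter peak, run on the counts of sites and peaks, moved no count by over 1.5 times. With pairs that overlap one to one, run on the median distances between summits, the distance from Sin3a in the Sin3a line to FLAG in the Nanog line was 56 bp in place of 125 bp, and the other 3 medians did not move. At a −log10 q of at least 5, the Mycn window had 0 peaks in each list, hence 0 sites and 0 shared peaks, and the Sin3a and FLAG peaks of the single-transgene lines that met in the Myc window were 3 and 3 in place of 7 and 6. At 10 or more, the Myc window had 5 sites, 0 of them with both proteins, and 1 and 4 Sin3a and 0 and 1 FLAG peaks in the single-transgene and double lines. The Sin3a lists then shared 1 peak in each direction, the FLAG lists 0, and Sin3a met FLAG at 0 peaks in each pairing. With the top 17168 peaks of each list, 0 Myc sites had both proteins, FLAG had 0 and 1 Myc peaks, the FLAG lists shared 0 peaks, each pairing of Sin3a and FLAG 0, and the Mycn window had 1 site, 0 with both proteins and 0 FLAG peaks. The top 17168 peaks are the whole Sin3a list of the Sin3a line, so that this setting cuts the FLAG lists far more. At 10 or more, Sin3a peaks were lost as well, and at 5 or more, 4 Myc sites still had both proteins in place of 6. At the Myc sites with both proteins, FLAG peaks had 48.1% to 98.8% of their list above them and Sin3a peaks 15.2% to 95.6%. Stricter settings thus leave fewer peaks, and they cannot show on which protein the sharing rests. Of all peaks, 46.7% to 51.5% in each list reached a −log10 q of 10. Sharing over the genome was not computed at the stricter settings, so these losses cannot be called particular to Myc. Windows 50 kb longer on both sides gave 11 Sin3a peaks in the double line at Myc, 6 of them at FLAG and 6 FLAG peaks at Sin3a, and 2 FLAG peaks of that line at Mycn. Joining over gaps of up to 1000 bp gave 5 Sin3a peaks in each list and 2 FLAG peaks in place of 6 in the Nanog line. As scaled fragments the ratio between lines turned at Myc site 3 for Sin3a (0.973 in place of 1.13) and at Mycn site 1 for FLAG (1.02 in place of 0.905), both near 1. Ranked by fold, 31 of 34 places moved beyond their interval. Apart from the smaller lists of the stricter settings, the cause was not tested.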
